A study of Homo sapiens with 6 samples.

Results

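SR proteins and heterogeneous nuclear ribonucleoproteins (hnRNPs) are the main sequence-specific regulators of pre-mRNA splicing. The SR and hnRNP splicing regulators described here are 32 genes chosen by symbol from the 28847 genes of the deposited table, 13 in an SR group (SRSF1 to SRSF11, TRA2A and TRA2B) and 19 in an hnRNP group, which includes PTBP1 and TARDBP. All 32 were in the table and all 32 passed the filter on low values, 10 or more normalized reads in 3 or more libraries. Polyadenylated RNA was sequenced in 3 libraries whose labels name THP-1 with recombinant human RBP4, a protein that carries retinol in plasma, and in 3 control libraries labelled THP-1 alone. THP-1 is a human monocytic leukaemia line, and the series describes the cells as an M0 (unpolarized) macrophage model. The sources used here give neither a dose nor a time, and do not say whether libraries of a group came from separate cultures, so p-values measure the spread between these libraries only.

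SR proteins carry RNA recognition motifs and a tail rich in arginine and serine. They bind exonic enhancers and help to recruit the spliceosome, and kinases of the SRPK and CLK families phosphorylate the tail. hnRNPs coat nascent transcripts, often oppose exon inclusion, and also act in RNA export, stability and translation. Many genes of both groups regulate their own level through unproductive splicing, in which a poison exon or a retained intron sends the transcript to nonsense-mediated decay. In blood cells these factors shape the splicing changes of differentiation and are recurrently altered in leukaemia.

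Depth lay between 15994483 and 16420517 gene reads in the RBP4 libraries and between 15202000 and 16149118 in the control libraries. Of 13 monocyte and macrophage markers, 3 (CD33, SPI1 and CTSS) reached 10 CPM, the value of a gene after each library is scaled to the same total, in all 6 libraries. The lipopolysaccharide co-receptor CD14 was at 0 in all 3 RBP4 libraries and at most 0.132 CPM in the control libraries, and 7 of the markers were under 1 CPM in every library. Of 14 erythroid markers, 12 reached 10 CPM in all 6, and of 6 T, NK and B cell markers 0 did. Marker levels thus do not match a monocytic line, and RBP4 and control are used below as names of labelled groups only. The summed monocyte list stood at 142 to 149 CPM in the RBP4 libraries and 127 to 134 CPM in the control libraries, and the erythroid list at 2354 to 2412 and 2559.5 to 2569 CPM. Within the erythroid list 7 of 14 genes rose and 2 fell (median log2 fold change 0.18), while TFRC, the transferrin receptor gene, had 500.0, 477 and 472 CPM in the RBP4 libraries, against 892, 893 and 919 CPM in the control libraries. Mitochondrially encoded genes held 7.58% to 7.69% of the values in the RBP4 libraries and 5.90% to 6.10% in the control libraries. The part of these shifts in the results was not tested, and in bulk libraries fewer cells of a type and less RNA per cell cannot be told apart.

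The hnRNP genes were lower in the RBP4 libraries almost throughout, whereas the SR genes were mixed. Of the 19 hnRNP genes, 18 fell (17 with the libraries scaled to equal totals), none rose and 1, HNRNPA0, did not pass the threshold, which was 0.05 for the p of the limma moderated test after Benjamini-Hochberg adjustment over all 15676 genes tested. At an unadjusted p under 0.05 the hnRNP genes raised numbered 0 as well, and edgeR and DESeq2 also raised none and lowered 18. Of the 13 SR genes, 8 fell, 2 rose (SRSF3 and SRSF8) and 3 did not pass (SRSF1, SRSF6 and SRSF10), while 6 fell and 4 rose with the libraries scaled to equal totals. The median log2 fold change was -0.36 over the hnRNP genes, with a range of -0.53 to -0.043, and -0.14 over the SR genes, with a range of -0.45 to 0.37. The changes were moderate, up to 1.44-fold lower for HNRNPA3 and 1.29-fold higher for SRSF3. Standard errors (SE) of the log2 fold changes began at 0.020 on the log2 scale.

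Many genes outside these families differed as well. Over all genes tested, 26.1% were lowered and 24.5% raised, 50.6% in either direction, with a median log2 fold change of -0.0021. Of all calls, 48.4% were upward with the size factors of the deposited values and 61.7% were upward with the libraries scaled to equal totals, which moved the median to 0.066. The share lowered was larger among abundant genes. Among the 4811 protein-coding genes whose mean lay within the range of the 32 members' means, 52.3% were lowered and 17.2% raised, 69.5% in either direction, with a median of -0.11. Against that range of abundance, 94.7% of the hnRNP genes and 61.5% of the SR genes were lowered. The SR share lay near that background and the hnRNP share above it. The range is called like abundance below but does not match the members gene by gene. Its median gene had 1456 normalized reads in the RBP4 libraries and 1542 in the control libraries. The hnRNP medians were 5598 and 6142, and the SR medians 2504 and 3055. The share lowered among genes matched to either group in abundance was not measured. RBP4 and control values lay apart, without overlap, for 18 of the 19 hnRNP genes and 11 of the 13 SR genes, beside 56.2% of all genes tested and 72.2% of the coding genes of like abundance. The difference between the SR and the hnRNP group was not tested, since the members were chosen with results known. The authors' deposited table had 26 members lowered and 2 raised at an adjusted p under 0.05, and all 28 were called in the same direction here.

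**Figure D1:**
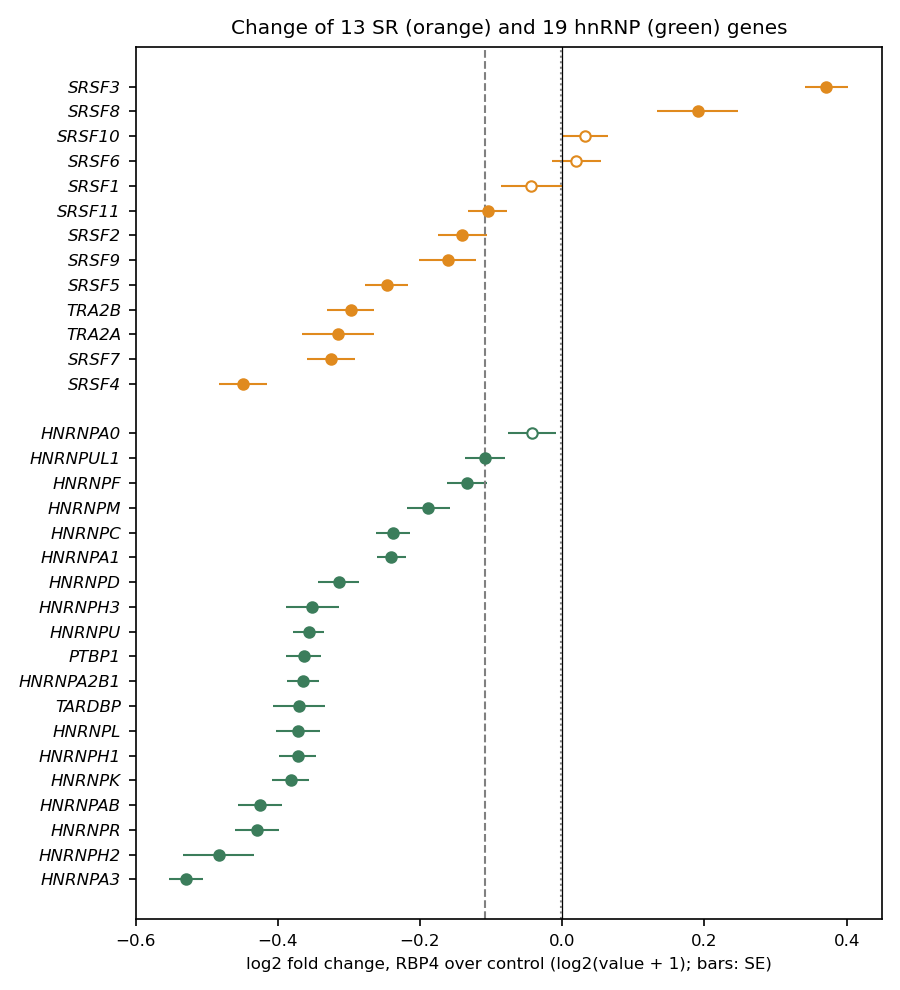
Log2 fold change of RBP4 over control libraries for the 13 SR genes (orange, top) and the 19 hnRNP genes (green, bottom). Bars are SE, open symbols did not pass the threshold, the dotted line is the median of all genes tested and the dashed line, at -0.11, that of protein-coding genes of the members' range of abundance. All hnRNP values lie below 0, between -0.53 and -0.043 (HNRNPA0 lies above 0 with the libraries scaled to equal totals), while SRSF3 and SRSF8 rose, and SRSF6 and SRSF10 lie above 0 without passing.

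Promoter sequence is shown for SRSF3, which rose furthest, and for HNRNPH2, the strongest decrease among hnRNP genes after HNRNPA3. The window of HNRNPA3 overlaps annotated exons almost throughout and is not shown. The end of the SRSF3 run reaches a few bases into the first exon of an annotated SRSF3 transcript. Each run is the last 200 bases before the RefSeq start on GRCh38.p14, plus strand, at chr6:36594162-36594361 for SRSF3 and chrX:101408022-101408221 for HNRNPH2, written 5′ to 3′. Capitals mark matches, on either strand, to the motifs searched. These were the E-box CACGTG, the box named for its letters CCAAT, the GC box in the form GGGCGG, the ETS site in the form CCGGAAG, and the core of the cyclic AMP response element, TGACGT. The last was a composite element of the factors ATF4 and C/EBP, spelled TGATGNAA.
SRSF3: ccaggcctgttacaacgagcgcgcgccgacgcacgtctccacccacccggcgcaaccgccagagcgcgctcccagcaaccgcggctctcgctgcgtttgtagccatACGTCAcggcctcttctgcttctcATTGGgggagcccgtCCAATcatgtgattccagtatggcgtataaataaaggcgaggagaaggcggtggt
HNRNPH2: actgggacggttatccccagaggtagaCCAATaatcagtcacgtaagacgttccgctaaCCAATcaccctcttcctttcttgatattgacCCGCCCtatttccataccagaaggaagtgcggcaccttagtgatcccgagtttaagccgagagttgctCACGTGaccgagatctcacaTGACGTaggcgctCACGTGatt

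The SRSF3 run holds CCAAT once on each strand and TGACGT on the minus strand. The HNRNPH2 run holds CCAAT at 2 places, CACGTG at 2 places, TGACGT, and GGGCGG on the minus strand. The search over all genes used the 250 bases before the start. RefSeq windows matched 29 of the 32 members by symbol, all but SRSF2, TRA2A and HNRNPA1, and a gene with several starts was counted once if any window held the motif. A CCAAT match was present for 14 of 18 hnRNP genes and 2 of 11 SR genes (SRSF3 and SRSF8), beside 37.0% of all genes with a window and 41.9% of the 9691 tested protein-coding genes with one. The 2 SR genes that hold it were the 2 that rose, a match noticed after their values were seen. Over both groups together, CCAAT was present for 13 of 23 lowered members with a window and for 3 of 6 members not lowered. CACGTG was found for 5 hnRNP genes (HNRNPA3, HNRNPD, HNRNPH2, HNRNPH3 and HNRNPM) and 0 SR genes, beside 11.3% of tested coding genes. GGGCGG was found for 15 hnRNP and 4 SR genes, beside 75.5%. For TGACGT the counts were 3 and 4, beside 12.8%, and for CCGGAAG 2 and 2, beside 19.3%. No member window held TGATGNAA, which 2.19% of tested coding genes held. These matches describe the letters of the windows and not binding.

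SRSF3, the smallest SR protein, which also acts in mRNA export and 3′ end formation, rose furthest of the 32 genes. SRSF3 (ENSG00000112081, chromosome 6, 36594353 to 36605600 on GRCh38) had 4842, 4736 and 4964 normalized reads in the RBP4 libraries, against 3729, 3657 and 3855 in the control libraries. The lowest RBP4 library lay above the highest control library, and the level was 1.29-fold higher in the RBP4 libraries (log2 fold change 0.37, SE 0.031, adjusted p = 6.3e-17). Its closest relative in the group, SRSF7 (ENSG00000115875, chromosome 2, 38743599 to 38751494), which adds a zinc knuckle to the same architecture, moved the other way. SRSF7 had 2398, 2430.5 and 2487 normalized reads in the RBP4 libraries, against 2982, 3048 and 3135 in the control libraries, without overlap, and fell 1.25-fold (log2 fold change -0.32, SE 0.034, adjusted p = 1.1e-12). The ratio of SRSF3 to SRSF7 in normalized reads was 2.02, 1.95 and 2.00 in the RBP4 libraries, against 1.25, 1.20 and 1.23 in the control libraries. This ratio was looked at after the values of both genes were seen and is given without a test.

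SRSF4, SRSF5 and SRSF6 are close relatives, each with a second RNA recognition motif that departs from the canonical form, and they did not move alike. SRSF4 (ENSG00000116350, chromosome 1, 29147743 to 29181987) had 2499.7, 2384 and 2463 normalized reads in the RBP4 libraries, against 3253, 3387 and 3388 in the control libraries. It fell 1.36-fold, the largest decrease of the SR group (log2 fold change -0.45, SE 0.034, adjusted p = 1.2e-18). SRSF5 had 3816, 3791 and 3912 normalized reads in the RBP4 libraries, against 4552, 4580.1 and 4537 in the control libraries, a decrease of 1.19-fold (adjusted p = 1.4e-10), and the groups did not overlap for either gene. SRSF6 had 2971, 3011 and 2807 normalized reads in the RBP4 libraries, against 2938, 2783 and 2948 in the control libraries, and its groups overlapped (log2 fold change 0.020, SE 0.034, adjusted p = 0.661).

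SRSF2, a component of nuclear speckles, and SRSF8, a relative of SRSF2 whose annotated exons form a single block, also differed in direction. SRSF2 had 2439.8, 2517 and 2556 normalized reads in the RBP4 libraries, against 2702, 2814 and 2765 in the control libraries, and fell 1.10-fold (log2 fold change -0.14, SE 0.035, adjusted p = 4.8e-04). SRSF8 (ENSG00000263465, chromosome 11, 95067197 to 95071224) had 818, 837 and 747 normalized reads in the RBP4 libraries, against 701, 664 and 739 in the control libraries, and rose 1.14-fold (log2 fold change 0.19, SE 0.057, adjusted p = 0.00393). For SRSF8 the lowest RBP4 library and the highest control library were close, yet the groups did not overlap. Its rise passed in every alternative, but at an adjusted p as high as 0.0429 with 1 library left out (limma), with 1.2e-04 the lowest. The SRSF2 decrease did not pass with the libraries scaled to equal totals (adjusted p = 0.0752, the highest over its alternatives, with 3.0e-04 the lowest).

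TRA2A and TRA2B, the human counterparts of the fly splicing factor transformer-2, both fell. TRA2A had 808, 834 and 865 normalized reads in the RBP4 libraries, against 1053, 1013 and 1054 in the control libraries, a decrease of 1.24-fold (adjusted p = 2.7e-07). TRA2B had 2973, 2994 and 3074 normalized reads in the RBP4 libraries, against 3555, 3859 and 3702 in the control libraries, a decrease of 1.23-fold (adjusted p = 6.8e-12). Neither gene's groups overlapped. SRSF9, a shorter relative of SRSF1, averaged 1648 ± 38.5 normalized reads in the RBP4 libraries and 1843 ± 46.8 in the control libraries (SD, n = 3 each) and fell 1.12-fold, while SRSF11 averaged 5809.7 ± 85.3 normalized reads in the RBP4 libraries and 6248 ± 90.5 in the control libraries and fell 1.08-fold. SRSF11 lost its call with the libraries scaled to equal totals (adjusted p = 0.272, the highest over its alternatives, with 4.6e-04 the lowest). SRSF9 passed only narrowly under that scaling (limma, adjusted p = 0.0453).

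Among the SR genes that did not pass, SRSF1, the founding member of the family, had 1402, 1372 and 1326 normalized reads in the RBP4 libraries, against 1384, 1439.8 and 1401 in the control libraries, with overlap (log2 fold change -0.043, SE 0.043, adjusted p = 0.42). SRSF10, which turns into a splicing repressor when it is dephosphorylated, had 3412, 3392 and 3435 normalized reads in the RBP4 libraries, against 3366, 3288 and 3356 in the control libraries. Its RBP4 libraries all lay slightly above the control libraries, by 1.02-fold on average (log2 fold change 0.033, SE 0.032, adjusted p = 0.407). With the libraries scaled to equal totals SRSF10 and SRSF6 passed as raised (log2 fold change 0.10 and 0.088, adjusted p = 0.00596 and 0.0289), and SRSF1 changed sign without passing. Under that scaling the SR group had 4 genes raised and 6 lowered, and the hnRNP group 0 raised and 17 lowered.

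**Figure D2:**
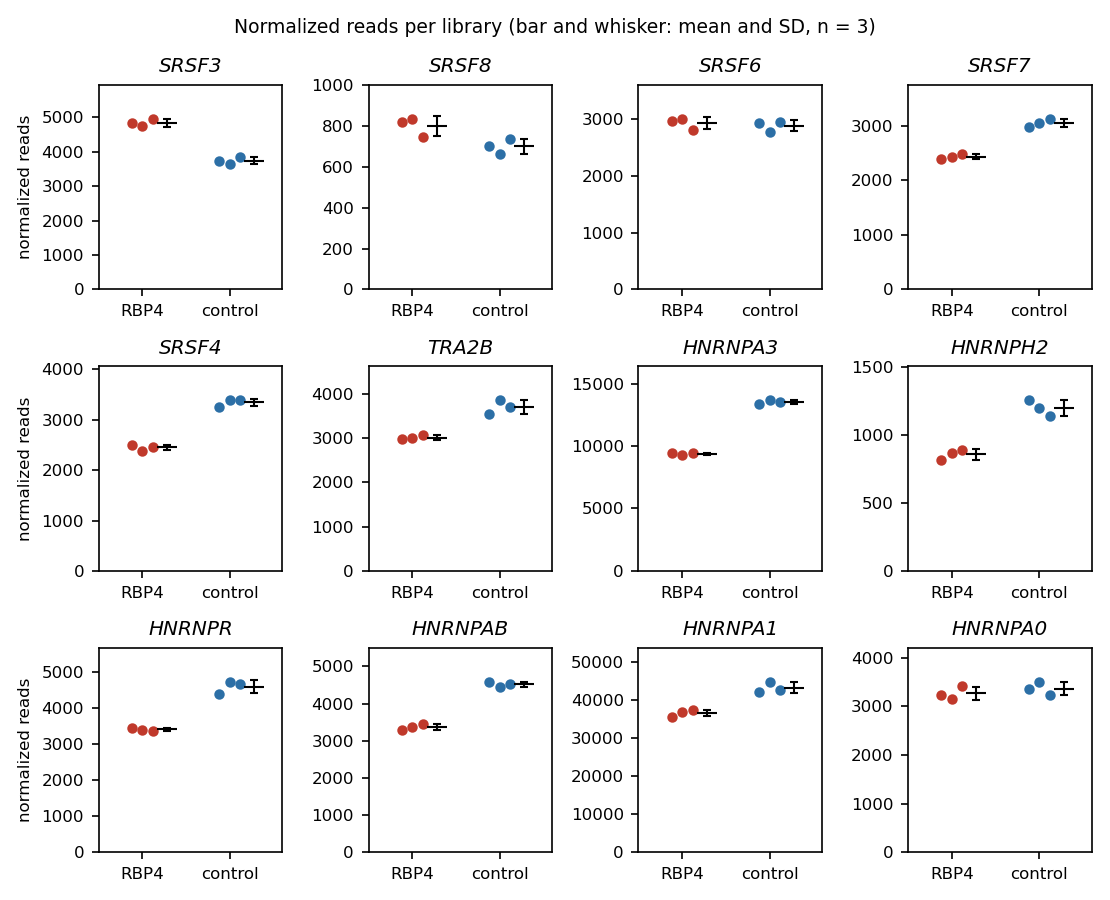
Normalized reads (vertical axes, from 0) in each RBP4 and control library for 6 SR and 6 hnRNP genes, with the mean and SD of 3 libraries beside the points. RBP4 libraries lie above control libraries for SRSF3 and SRSF8 and below them for SRSF7, SRSF4, TRA2B, HNRNPA3, HNRNPH2, HNRNPR, HNRNPAB and HNRNPA1, and the groups overlap for SRSF6 and HNRNPA0.

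The A/B type hnRNPs carry paired RNA recognition motifs and a glycine-rich tail. HNRNPA3 (ENSG00000170144, chromosome 2, 177212563 to 177223958), which binds RNA and telomeric repeats, had the largest change of all 32 genes. It had 9413, 9303 and 9427 normalized reads in the RBP4 libraries, against 13386, 13670.0 and 13546 in the control libraries. Libraries of a group lay close together and far from the other group, and the gene fell 1.44-fold (log2 fold change -0.53, SE 0.024, adjusted p = 2.2e-30). HNRNPAB, which binds RNA and also regulates transcription, had 3279.8, 3370.0 and 3464 normalized reads in the RBP4 libraries, against 4592, 4453 and 4533 in the control libraries, and fell 1.34-fold (log2 fold change -0.43, SE 0.031, adjusted p = 2.9e-19). HNRNPA2B1, a reader of sorting signals in RNA, averaged 15711 ± 323 normalized reads in the RBP4 libraries and 20236 ± 649.7 in the control libraries and fell 1.29-fold.

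HNRNPA1 (ENSG00000135486, chromosome 12, 54280193 to 54287088), a general repressor of splice site choice, was the most abundant member. HNRNPA1 had 35696, 36839 and 37363 normalized reads in the RBP4 libraries, against 42289.7, 44912 and 42655 in the control libraries. It fell 1.18-fold, less than HNRNPA3 in log2 fold change but in every RBP4 library relative to every control library (log2 fold change -0.24, SE 0.020, adjusted p = 1.6e-14). HNRNPA0 (chromosome 5, 137745651 to 137754376), a relative with a single annotated exon that binds AU-rich elements of cytokine transcripts, was the exception of its group. It had 3224, 3149 and 3420.4 normalized reads in the RBP4 libraries, against 3349, 3505 and 3233 in the control libraries, with overlap (log2 fold change -0.043, SE 0.034, adjusted p = 0.303), and its sign turned positive with the libraries scaled to equal totals without passing.

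The F/H type hnRNPs bind runs of G through quasi RNA recognition motifs. HNRNPH2 (chromosome X, 101408295 to 101414133) had 817, 866 and 889.9 normalized reads in the RBP4 libraries, against 1257, 1196 and 1144 in the control libraries, and fell 1.40-fold (log2 fold change -0.48, SE 0.050, adjusted p = 5.8e-13). HNRNPH1, whose protein is nearly identical, had 8691, 8696 and 9362 normalized reads in the RBP4 libraries, against 11465, 11665 and 11469 in the control libraries, and fell 1.29-fold (log2 fold change -0.37, SE 0.026, adjusted p = 5.6e-20). The sequences are similar enough for reads to be exchanged between HNRNPH1 and HNRNPH2, and the value of each alone is uncertain to that extent. HNRNPH3 averaged 2459 ± 118 normalized reads in the RBP4 libraries and 3138 ± 182 in the control libraries and fell 1.28-fold. HNRNPF averaged 5598 ± 135 normalized reads in the RBP4 libraries and 6142 ± 111 in the control libraries and was 1.10-fold lower. It passed only narrowly with the libraries scaled to equal totals (limma, adjusted p = 0.0450). The groups did not overlap for any of these 4 genes.

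HNRNPK, which binds C-rich RNA and DNA through KH domains, had 8669, 8284 and 8984 normalized reads in the RBP4 libraries, against 11323, 11502 and 10955 in the control libraries, and fell 1.30-fold (log2 fold change -0.38, SE 0.026, adjusted p = 1.6e-19). HNRNPR, a relative of SYNCRIP with roles in RNA transport, had 3462, 3405 and 3374 normalized reads in the RBP4 libraries, against 4391, 4739 and 4668 in the control libraries, and fell 1.35-fold (log2 fold change -0.43, SE 0.031, adjusted p = 3.5e-19). Neither gene showed overlap between the groups. The decrease of PTBP1, the polypyrimidine tract binding protein that represses many exons, was 1.29-fold, with 9986 ± 289.7 normalized reads in the RBP4 libraries and 12846 ± 168 in the control libraries. HNRNPL, which binds CA-rich RNA, fell 1.29-fold, TARDBP, which binds UG-rich RNA and encodes TDP-43, 1.29-fold, and HNRNPU, which links nuclear RNA to chromatin, 1.28-fold. In all, 8 hnRNP genes lay in a narrow band of log2 fold change between -0.39 and -0.35, an interval chosen after the values were seen.

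HNRNPC, which packages nascent RNA and competes with U2AF2 for uridine tracts, averaged 10359 ± 70.1 normalized reads in the RBP4 libraries and 12218 ± 241 in the control libraries and fell 1.18-fold. HNRNPD, known as AUF1 and a factor in the decay of AU-rich transcripts, averaged 6436 ± 183 normalized reads in the RBP4 libraries and 8006 ± 350.2 in the control libraries and fell 1.24-fold. HNRNPM averaged 3981 ± 114 normalized reads in the RBP4 libraries and 4534 ± 39.9 in the control libraries and fell 1.14-fold. These 3 genes fell by less than the median of the group in log2 fold change, with adjusted p between 1.2e-14 (HNRNPD) and 3.0e-07 (HNRNPM). HNRNPUL1, a relative of HNRNPU that acts in the response to DNA breaks, had the smallest change that passed in the hnRNP group. It averaged 5397 ± 146 normalized reads in the RBP4 libraries and 5818 ± 33.0 in the control libraries (log2 fold change -0.11, SE 0.028, adjusted p = 9.3e-04), and the call was lost with the libraries scaled to equal totals (adjusted p = 0.234, the highest over its alternatives, with 4.0e-04 the lowest).

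Summed over members, the share of all normalized reads held by the 19 hnRNP genes was 0.985, 0.989 and 1.01% in the RBP4 libraries, against 1.17, 1.20 and 1.17% in the control libraries, and the groups did not overlap. The share held by the 13 SR genes was 0.232, 0.230 and 0.233% in the RBP4 libraries, against 0.236, 0.238 and 0.239% in the control libraries, also without overlap but with a smaller gap. In normalized reads the hnRNP sum was 0.805 times the control mean in the RBP4 libraries, and the SR sum 0.929 times. As a share of all normalized reads, which is the same as scaling to equal totals, the values were 0.844 and 0.974 times. The SR sum divided by the hnRNP sum was 0.235, 0.233 and 0.230 in the RBP4 libraries, against 0.202, 0.198 and 0.205 in the control libraries, a ratio that does not depend on the scaling of the libraries. HNRNPA1 alone made up 23.7% of the hnRNP sum in the RBP4 libraries and 22.6% in the control libraries. The part of HNRNPA1 thus differed little between the groups. Without it the share held by the other 18 genes was 0.754, 0.752 and 0.773% in the RBP4 libraries, against 0.908, 0.928 and 0.906% in the control libraries. In each RBP4 library the median hnRNP gene lay -0.375, -0.374 and -0.303 log2 units from its control mean, and the median SR gene -0.178, -0.133 and -0.111, in the order of replicates 1, 2 and 3.

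**Figure D3:**
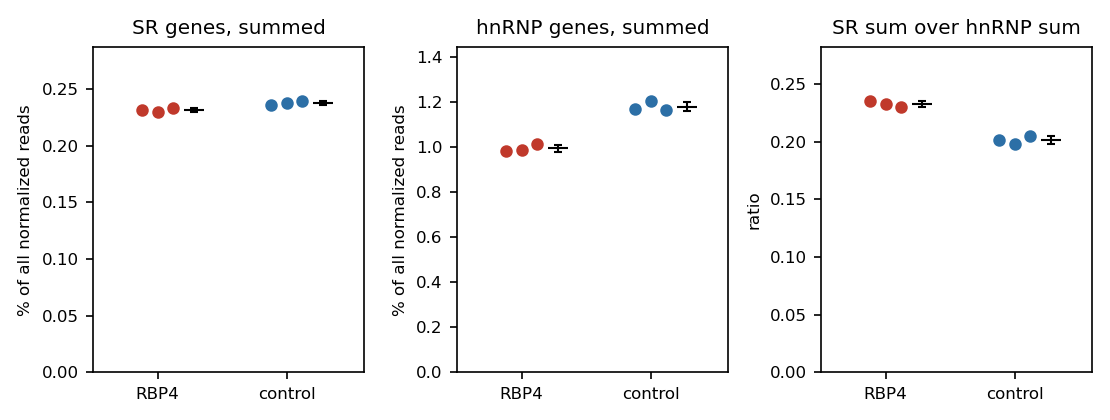
Share of all normalized reads held by the 13 SR genes (left) and the 19 hnRNP genes (middle), and the ratio of the SR sum to the hnRNP sum (right), in each RBP4 and control library with the mean and SD of 3. The hnRNP share lies between 0.985% and 1.01% in the RBP4 libraries and between 1.17% and 1.20% in the control libraries, and the ratio is higher in each RBP4 library.

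Levels between genes were compared per length, as TPM (values per length on a scale with the same total for every library), computed from the normalized reads and the deposited gene length, which counts all annotated exons. The median hnRNP gene stood at 197 TPM in the RBP4 libraries and 245 TPM in the control libraries, and the median SR gene at 94.0 and 105 TPM. HNRNPA1 led with 1535 ± 28.1 TPM in the RBP4 libraries and 1814 ± 57.8 TPM in the control libraries. HNRNPK followed in the mean of both groups, with 361 ± 14.0 TPM in the RBP4 libraries and 470.1 ± 12.3 TPM in the control libraries, and HNRNPA3 stood at 332 ± 2.92 TPM in the RBP4 libraries and 479 ± 4.11 TPM in the control libraries. HNRNPA3 thus ranked 6 in the RBP4 order and 2 in the control order. HNRNPF, with 367 ± 9.03 TPM in the RBP4 libraries and 403 ± 6.16 TPM in the control libraries, ranked 2 in the RBP4 order and 6 in the control order. HNRNPA2B1, with 362 ± 6.31 TPM in the RBP4 libraries and 466 ± 14.5 TPM in the control libraries, stood close to HNRNPK in both. Place 2 of either order was thus not separated from the places of HNRNPK and HNRNPA2B1. The SR genes with the highest level per length were SRSF2 and SRSF5. SRSF2 had 177 ± 3.32 TPM in the RBP4 libraries and 195 ± 3.58 TPM in the control libraries. SRSF5 had 153 ± 2.07 TPM in the RBP4 libraries and 182 ± 1.05 TPM in the control libraries. In normalized reads SRSF11 stood above SRSF2, with means of 5809.7 against 2504 (RBP4) and 6248 against 2760 (control). Its annotated exons cover 8473 bases, against 3017 for SRSF2 and 22512 for HNRNPU. The order and the medians per length thus depend on the annotated exons too. The lowest member was SRSF8, with 42.4 ± 2.65 TPM in the RBP4 libraries and 37.2 ± 1.95 TPM in the control libraries, so the members spanned a wide range of levels. SRSF3 stood at 145 ± 3.14 TPM in the RBP4 libraries and 112 ± 2.88 TPM in the control libraries. Of the 31 pairs of neighbours in the order, 16 in the RBP4 libraries and 14 in the control libraries lay within 1 SD of each other and were not separated.

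**Figure D4:**
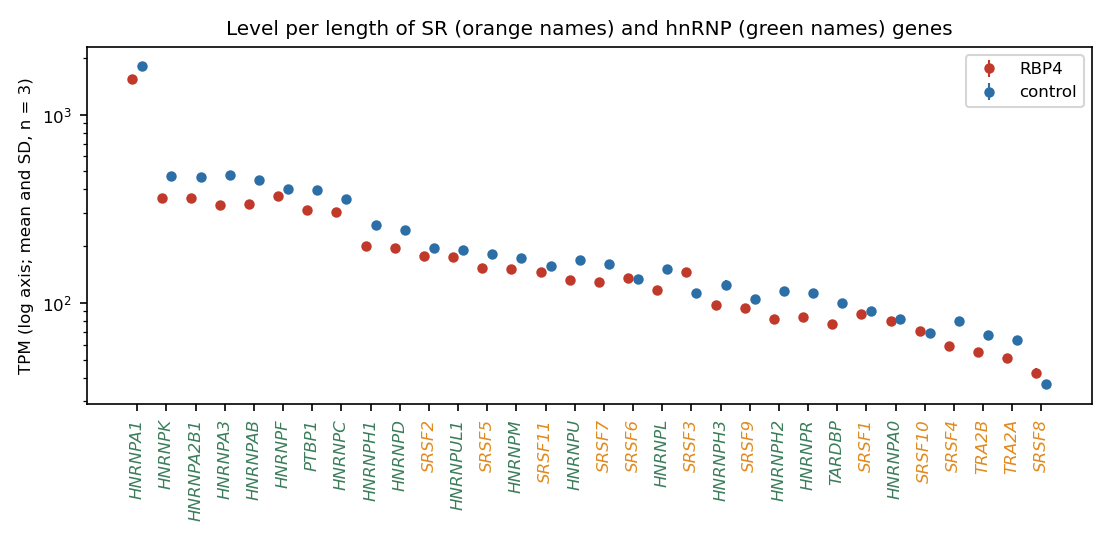
Level per length (TPM, log axis) of the 32 genes in RBP4 (red) and control (blue) libraries, as means with SD of 3, ordered by the mean of both groups; SR names are orange and hnRNP names green. HNRNPA1 stands apart at 1535 and 1814 TPM, hnRNP genes fill the upper end, and SRSF8 is lowest.

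The values are sums over all transcripts of a gene, productive or not. GENCODE release 29 annotates at least 1 transcript as a target of nonsense-mediated decay for 13 of the 13 SR genes and 13 of the 19 hnRNP genes. Such transcripts make up 18.2% of the 137 annotated SR transcripts and 12.5% of the 313 hnRNP transcripts, and retained-intron transcripts 29.2% and 21.1%. The table does not separate them, so a change in a gene's reads need not be a change in the transcript that encodes protein. SRSF3 has 2 annotated decay targets and 4 retained-intron forms among 8 transcripts, and HNRNPA3 has 0 and 1 among 5. Of the hnRNP genes, 13 of 13 with an annotated decay target fell, and 5 of 6 without one, all but HNRNPA0. The median log2 fold change was -0.36 with a decay target and -0.39 without one. Since 94.7% of the group fell, these counts do not set the 2 kinds apart. Beside them stand 26.1% lowered over all genes tested and 52.3% over coding genes of like abundance.

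Some members share sequence or position with other genes. Of the genes named as pseudogenes of a member, 49 were in the table, for 12 members, and 17 reached the filter. Their reads are counted apart from those of the member, and their sum is given as a percentage of the member's reads. The sum for the 26 of HNRNPA1 was 2.50% in the RBP4 libraries and 2.59% in the control libraries. For the 4 of HNRNPC it was 4.65% and 4.57%. The one of HNRNPL stood at 2.51% in the RBP4 libraries and 1.67% in the control libraries, with overlap between the groups in its own reads. Those of HNRNPA3 stood at 0.871% and 0.828%. The most abundant, HNRNPA1P48, had 462, 376 and 573 normalized reads in the RBP4 libraries, against 749, 596 and 639 in the control libraries, without overlap. Despite its name, HNRNPA1P48 is annotated as protein-coding. Its means of 470 (RBP4) and 661 (control) were a large part of the HNRNPA1 pseudogene sums of 914 and 1122. The authors' counting could have split such reads, and no source used here says how it treated them.

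The library kit does not mark strand, so reads of overlapping genes on opposite strands cannot be told apart. HNRNPA2B1 shares 368 exonic bases with CBX3, a heterochromatin protein gene, which had 4207, 4349 and 4349 normalized reads in the RBP4 libraries, against 5031, 5074 and 5168 in the control libraries. HNRNPAB shares 196 with PHYKPL, a phospholyase gene, which had 1043, 1047 and 957 normalized reads in the RBP4 libraries, against 707, 759 and 733 in the control libraries. CBX3 was lower in the RBP4 libraries and PHYKPL higher, opposite to HNRNPAB. SRSF9 shares 1729 with GATC, SRSF2 1106 with MFSD11 and HNRNPUL1 215 with TGFB1. MFSD11 had 427, 453 and 381 normalized reads in the RBP4 libraries, against 368, 293 and 337 in the control libraries. GATC had 498, 519 and 574 normalized reads in the RBP4 libraries, against 541, 552 and 530.0 in the control libraries, with overlap between the groups. TGFB1, which encodes a cytokine, had 2136, 2176 and 2048 normalized reads in the RBP4 libraries, against 2842, 2770.0 and 3039 in the control libraries. The shares of these reads that fell in the shared bases were not tested. HNRNPU shares 3502 exonic bases with COX20, which had at most 68.3 normalized reads in any library, beside at least 13794 of HNRNPU. In all, 9 members share exonic bases with another gene above the filter.

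The factors that act on SR and hnRNP proteins were described by the same counts. Beside them stand the 26.1% lowered and 24.5% raised over all genes tested. Coding genes within the members' range of abundance had 52.3% lowered and 17.2% raised. Of 9 kinases of SR proteins, 5 fell, 1 rose and 3 missed the threshold (median log2 fold change -0.28), and the 55.6% lowered lay near that of genes of like abundance. PRPF4B, a kinase of the tri-snRNP, averaged 3241 ± 104 normalized reads in the RBP4 libraries and 4510.2 ± 72.0 in the control libraries and fell 1.39-fold. CLK3 and CLK1, nuclear kinases of the arginine-serine tail, fell 1.49-fold and 1.41-fold. With the libraries scaled to equal totals, and with edgeR on the recovered reads, 2 kinases rose. The member that rose in limma was SRPK3, which is best known from muscle, at a low level of 91.3 ± 13.5 normalized reads in the RBP4 libraries and 57.4 ± 7.82 in the control libraries. Of 10 genes of import and arginine methylation, 9 fell, 1 rose and 0 missed the threshold (median -0.22). With the libraries scaled to equal totals 7 of them fell and 1 rose (median -0.15). TNPO1, the import receptor of HNRNPA1 and related proteins, fell 1.20-fold and KPNB1, importin beta, 1.17-fold. PRMT6, an arginine methyltransferase, was the member that rose, to 718 ± 56.7 normalized reads in the RBP4 libraries, against 505 ± 33.3 in the control libraries.

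Other splicing factors were mostly lower too. Of 19 SR-related proteins and coactivators tested, 15 fell, 0 rose and 4 missed the threshold (limma, with 0 raised at an unadjusted p under 0.05 and 0 by edgeR and by DESeq2; median -0.22). SRRM2, a scaffold of nuclear speckles, fell 1.20-fold, LUC7L3 1.27-fold and SRRM1 1.28-fold. Of 32 proteins of the spliceosomal snRNPs, 26 fell, 0 rose and 6 missed the threshold (again 0 raised at an unadjusted p under 0.05 and 0 by edgeR and by DESeq2; median -0.27). PRPF8, the central scaffold of the spliceosome, averaged 6895 ± 75.7 normalized reads in the RBP4 libraries and 8909.5 ± 151 in the control libraries and fell 1.29-fold, the Sm protein gene SNRPE 1.38-fold and the helicase gene SNRNP200 1.19-fold. Of 15 genes of splice site recognition, 11 fell, 1 rose and 3 missed the threshold. SF3B1, the branch point factor, fell 1.27-fold, U2AF2, which binds the polypyrimidine tract, 1.36-fold and SF3B3 1.26-fold. SF1, the branch point binding protein, was the member that rose, 1.15-fold.

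Of 35 further RNA binding regulators related to the hnRNPs, 24 fell, 3 rose and 8 missed the threshold (median -0.20). YBX1, a cold shock domain protein, averaged 19701 ± 366 normalized reads in the RBP4 libraries and 25734 ± 316 in the control libraries and fell 1.31-fold, and FUBP1 fell 1.33-fold. SFPQ, a paraspeckle protein, rose 1.36-fold, with 11620.4 ± 97.2 normalized reads in the RBP4 libraries and 8546 ± 107 in the control libraries, and the muscleblind genes MBNL2 and MBNL3 rose 1.19-fold and 1.29-fold. With the libraries scaled to equal totals 5 of these genes rose and 20 fell. Of 17 genes of the exon junction complex and nonsense-mediated decay, 8 fell, 1 rose and 8 missed the threshold (median -0.087), and the 47.1% lowered was no higher than among coding genes of like abundance. EIF4A3, the helicase that anchors the exon junction complex, averaged 1425 ± 37.1 normalized reads in the RBP4 libraries and 2107 ± 35.1 in the control libraries and fell 1.48-fold, and UPF1, the central helicase of the decay pathway, fell 1.22-fold. The gene that rose was SMG6 (adjusted p = 0.0334), and DESeq2 did not call it. With the libraries scaled to equal totals this last list had 4 genes raised and 5 lowered.

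**Figure D5:**
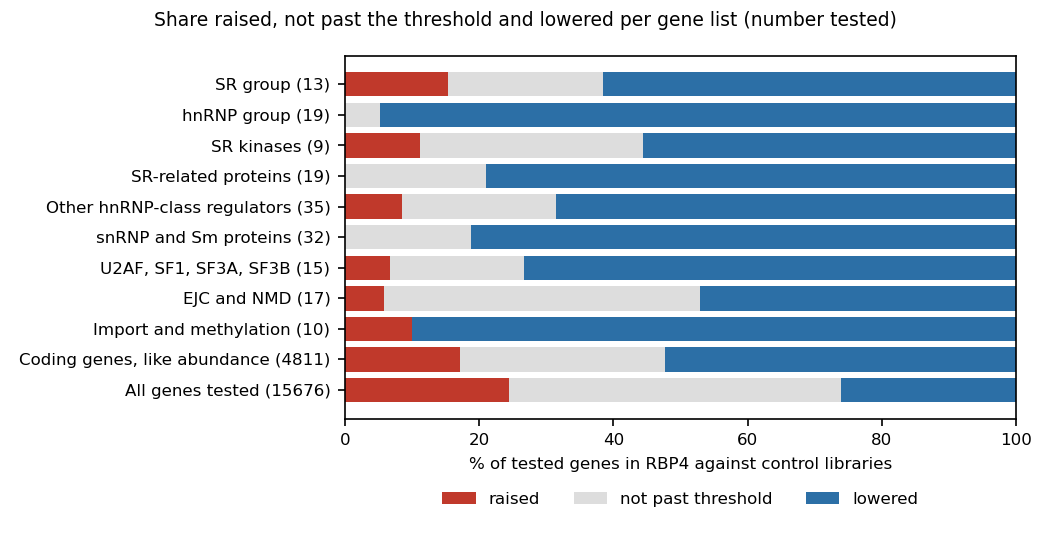
Share of the tested genes of each list that were raised (red), did not pass the threshold (grey) or were lowered (blue) in RBP4 against control libraries, with the number tested in brackets. The hnRNP group shows 94.7% lowered, the SR group 61.5% and all genes tested 26.1%. Protein-coding genes within the members' range of abundance (like abundance) show 52.3% lowered.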

How the data were processed

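Per the file headers, the authors deposited a normalized signal for each gene in each library. The same table holds the authors' log2 fold changes with their p-values, per the file headers. Per the labels' protocols, messenger RNA was captured on poly-T beads before library preparation with NEBNext Ultra. No source used here names the aligner or counter. Each signal was a whole multiple of 1 step per library (100% of values within 0.01 reads), as read counts divided by a size factor are, and reads recovered this way were used for depth and for edgeR and DESeq2. In control library 2 the step is so near 1 that an automatic test did not accept it. Starts, ends and lengths equal GENCODE release 29 (GRCh38) for all 28847 genes. Values called normalized reads are these signals.

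The values were fitted over the whole table with limma-trend (R 4.3.3, limma 3.58.1, robust) on log2(value + 1), which understates changes of low genes, with an intercept and a group term, over genes with 10 or more normalized reads in 3 or more libraries. Tests were two-sided with Benjamini-Hochberg adjustment and a threshold of 0.05, and the code was tested on simulated data. Alternatives were scaling to equal totals, a pseudocount of 5, other filters, coding genes only, edgeR 4.0.16, DESeq2 1.42.0, a replicate block and leaving out each library. Groups and numbers come from the sample titles, and 0 columns of per-sample values were left unused. Members and lists were chosen with earlier results of these data known, so no test over a list was made. Values in every library are given for the 5 SR and 6 hnRNP genes with the largest change past the threshold, the 2 most abundant per length in each group, those that did not pass, and SRSF8, added after its values were seen. From other lists up to 3 genes with the smallest p are named, with members that rose where few did.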

Additional observations from a re-analysis of the deposited data

How the results depend on the processing

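Of 448 recomputed member values over 14 alternatives, 439 kept their direction and their side of the threshold, and 3 lost and 2 gained a call, all 5 with the libraries scaled to equal totals. Normalized reads summed to between 15460747 and 15526952 in the RBP4 libraries and between 16219937 and 16278314 in the control libraries. Scaling to equal totals therefore moved the log2 fold change of every member upward. Why the sums differ was not tested. Under that scaling the SR genes raised numbered 4, the median log2 fold change was -0.072 over the SR and -0.30 over the hnRNP genes, the summed levels in RBP4 over control libraries were 0.974 (SR) and 0.844 (hnRNP), and SRSF1 (0.025) and HNRNPA0 (0.026) turned positive without passing. Leaving out 1 library at a time gave counts of 8 SR and 18 hnRNP genes lowered and 2 SR genes raised each time. The medians were -0.16 to -0.12 (SR) and -0.38 to -0.35 (hnRNP). SRSF6 passed in none of these fits and ranged in them from -0.0071 to 0.050. Over all genes these fits raised 3329 to 3647 and lowered 3701 to 3874. With the replicate block the counts were again 2 and 8 for SR genes and 18 lowered for hnRNP genes. Deviations of libraries with the same number correlated between -0.017 and 0.0037 across genes, and those with different numbers between -0.0092 and 0.016. No deviation shared by number was seen, which does not tell whether the libraries were prepared in pairs. Depth does not limit these genes, the lowest of which averaged 701 normalized reads in the control libraries.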
